A study of Homo sapiens with 24 samples.

Results

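The ATP-binding cassette (ABC) genes of PPC1 prostate cancer cells were examined in parental cells and in polyploid giant cancer cells (PGCC), with and without the acid ceramidase (ASAH1) inhibitor LCL-521. Members were the protein-coding genes whose symbol is ABC, a subfamily letter from A to G and a number, without ABCA1 and ABCG1. The rule found 43 genes of the 48162 in the count table, of which 20312 are protein-coding. There were 11 ABCA, 9 ABCB, 11 ABCC, 4 ABCD, 1 ABCE, 3 ABCF and 4 ABCG genes.

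PPC1 is a single human cell line, and RNA was sequenced from 4 conditions with 6 libraries each, 1 per condition from each of 6 independent runs of the experiment. UT were parental cells without radiation or drug, harvested on day 5. UT_LCL were parental cells given 5 µM LCL-521 for 5 h on that day. For PGCC, cells irradiated with 8 Gy on day 2 were trypsinized 3 days later, and those held back by a 20 micron filter were collected. PGCC_LCL were irradiated and filtered in the same way and had 5 µM LCL-521 on day 5. No parental library was irradiated or filtered, so radiation, time after it and selection by size cannot be told apart in any comparison of PGCC with parental cells. In bulk RNA, fewer cells of a type and less RNA per cell cannot be told apart either.

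Total counts ranged from 14835246 to 19906601 per library, and 3 counts, the floor used here for a gene to be called detected, came to 0.150 to 0.207 CPM (counts scaled to library size). Among 7 prostate luminal genes, 6 stayed under 3 counts in every library, KLK3, KLK2, TMPRSS2 and FOLH1 among them, and HOXB13 alone carried that list. The summed CPM of 5 epithelial genes was 782 to 1032 in UT and 966 to 1478 in PGCC. The 4 genes of cells in division summed to 122 to 302 CPM in UT and 693 to 892 in PGCC. CDKN1A, MDM2 and GDF15 are genes that respond to radiation. Their summed level was 162 to 1823 CPM in UT and 414 to 701 in PGCC. These sums overlapped, mostly through GDF15, at 103 to 1771 CPM in UT and 318 to 540 in PGCC. CDKN1A was at 5.10 to 14.4 CPM in UT and 52.3 to 186 in PGCC, without overlap. MDM2 was at 40.9 to 57.0 CPM in UT and 39.6 to 45.7 in PGCC. Of the lists for cells that should be absent from a cell line, fibroblast genes summed to 49.9 to 133 CPM in UT and 79.6 to 206 in PGCC, with most of it from COL1A2. Of 5 blood genes, 4 were under 3 counts in every library, with list sums of 0.406 to 2.74 CPM in UT and 2.34 to 4.02 in PGCC, and the endothelial sum was at most 1.34 CPM. The part of these differences in the ABC results was not tested. Replicates 4 and 5 of all 4 conditions lay apart from the other replicates on the second principal component, which held 16.5% of the variance. Many results that rest on them are therefore given with and without them.

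ABC proteins share an ATP-binding domain. Most couple ATP hydrolysis to movement of a lipid, conjugate, peptide, metal complex or drug across a membrane, and they are best known in cancer for drug efflux. ABCA proteins mainly move lipids, ABCB and ABCC proteins include drug and conjugate exporters as well as organelle transporters, and ABCD proteins work in peroxisomes and lysosomes. ABCE and ABCF proteins lack membrane domains and act on ribosomes and translation, and ABCG proteins are half-size sterol and drug exporters.

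Before the values, the 250 bases upstream of the first listed start are shown for some members. These are the 2 with the largest rises in PGCC, ABCC9 and ABCA13, and the 2 with the largest falls, ABCF2 and ABCA3. The choice was among members that differed and have a listed window, and it was not made by base composition. Sequences are from RefSeq, build GRCh38.p14, read 5′ to 3′ on the gene's strand. Capitals mark a GC box (GGGCGG, or CCGCCC on the other strand) or a CCAAT box (CCAAT, or ATTGG on the other strand). The windows are chr12:21941427-21941676 (minus strand), chr7:48171208-48171457 (plus), chr7:151227206-151227455 (minus) and chr16:2340729-2340978 (minus).
ABCC9: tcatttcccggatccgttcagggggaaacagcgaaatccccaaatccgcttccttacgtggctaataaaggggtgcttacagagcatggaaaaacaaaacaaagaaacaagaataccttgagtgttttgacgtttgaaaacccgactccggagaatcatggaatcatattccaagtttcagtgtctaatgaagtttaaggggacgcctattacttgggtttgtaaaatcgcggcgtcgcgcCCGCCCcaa
ABCA13: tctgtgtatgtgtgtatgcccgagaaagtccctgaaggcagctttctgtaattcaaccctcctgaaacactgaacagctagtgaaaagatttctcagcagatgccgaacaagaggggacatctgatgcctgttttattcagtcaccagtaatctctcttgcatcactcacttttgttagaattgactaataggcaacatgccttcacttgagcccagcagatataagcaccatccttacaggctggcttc
ABCF2: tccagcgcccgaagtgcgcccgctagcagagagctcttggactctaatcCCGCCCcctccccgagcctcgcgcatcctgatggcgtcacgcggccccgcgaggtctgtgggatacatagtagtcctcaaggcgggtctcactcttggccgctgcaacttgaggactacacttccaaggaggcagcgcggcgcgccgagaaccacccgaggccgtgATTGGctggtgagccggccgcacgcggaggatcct
ABCA3: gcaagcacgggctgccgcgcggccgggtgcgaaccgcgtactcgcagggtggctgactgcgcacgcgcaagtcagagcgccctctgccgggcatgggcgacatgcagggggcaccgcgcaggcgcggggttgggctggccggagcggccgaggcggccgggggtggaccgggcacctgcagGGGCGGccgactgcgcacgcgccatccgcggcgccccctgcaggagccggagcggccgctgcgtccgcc

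The ABCC9 window held 15 CpG and 1 GC box, and that of ABCA13 held 2 CpG and none of the motifs searched. The ABCF2 window held 26 CpG with 1 GC box and 1 CCAAT box, and that of ABCA3 held 38 CpG with 1 GC box. A window was listed for 34 of the 43 members. ABCA4, ABCA8, ABCB4, ABCB5, ABCC1, ABCC3 and ABCC8 were among the 9 with no entry. The median CpG number was 15.5 over the 34 members and 11 over the 27305 genes of the table. It was 14 (1 to 42) in 8 members higher in PGCC, 28.5 (24 to 38) in 4 lower members, 19 (2 to 42) in 10 members tested without passing the threshold and 3 (0 to 21) in 12 members with counts too low to test. Among the higher members the number thus ran from 1 in ABCC2 to 42 in ABCA5, and the lower members ABCC1 and ABCC3 are not covered because they have no window. On either strand, the GC box was in 17 of 34 member windows and 42.3% of all windows, CCAAT in 6 and 33%, TATAAA in 4 and 11.1%, CACGTG in 3 and 6.49%, and TGANTCA in 1 and 6.6%. These letter matches are a description and were not tested as binding sites.

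All 43 members reached 3 counts in at least 1 library, and 27 did so in all 24. In UT 6 members stayed under 3 counts in all 6 libraries, namely ABCA9, ABCB4, ABCC12, ABCD2, ABCG2 and ABCG8. In UT_LCL the 6 members under 3 counts throughout were ABCA9, ABCB4, ABCB5, ABCC12, ABCD2 and ABCG8. In PGCC these were ABCD2 and ABCG5, and in PGCC_LCL there were 0. Per library, 30 to 34 members reached 3 counts in UT, 30 to 33 in UT_LCL, 37 to 39 in PGCC and 35 to 40 in PGCC_LCL. More members were thus detected in every PGCC library than in any UT library, at similar depth. The matching number over all genes was not taken, so whether this gain is particular to the members was not tested. With no filter on low counts, the median log2 fold change of PGCC against UT was 0.36 for the 43 members (edgeR). It was 0.25 for all 29759 genes, so a shift upward was not particular to the members. As a share of all counts the members took 0.183 to 0.220% in UT and 0.163 to 0.181% in PGCC, ranges that did not overlap.

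**Figure D1:**
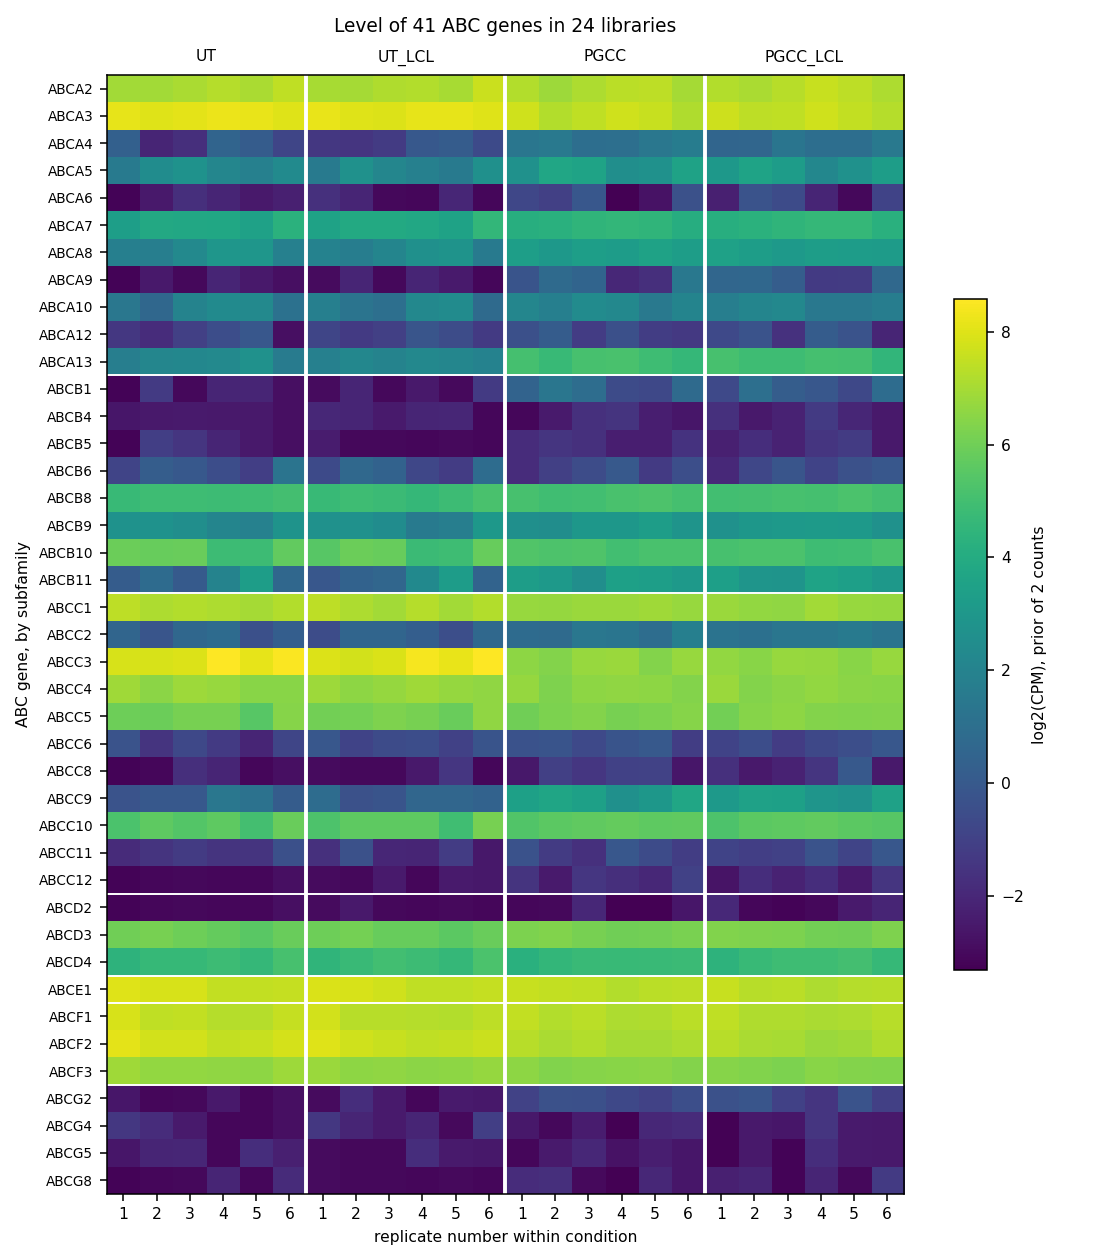
Level of 41 of the 43 ABC genes (vertical axis, by subfamily) in each library (horizontal axis, replicates 1 to 6 of the 4 conditions), coloured by log2 CPM with a prior of 2 counts. The ABCE and ABCF genes are bright in every library, the 4 ABCG genes are dark throughout, and ABCC9 and ABCA13 brighten in both PGCC conditions.

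Levels between genes were compared as reads scaled by library size and by kilobase of listed gene length (RPKM). In UT the highest medians belonged to ABCF2 at 61.5 RPKM, ABCE1 at 53.9, ABCF1 at 51.2, ABCC3 at 46.6, ABCA3 at 41.9 and ABCF3 at 35.4. Neighbours among these 6 overlapped over the 6 libraries. In PGCC the order was ABCF1 at 44.7 RPKM, ABCE1 at 43.6, ABCF2 at 38.8, ABCF3 at 30.4 and ABCA3 at 27.7. Among the 10 highest members of UT, ABCC3 moved furthest in this order, from rank 4 in UT to rank 8 in PGCC at 17.6 RPKM. At the low end, the median levels of the 4 ABCG members added up to 0.0383 RPKM in UT and 0.198 in PGCC.

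The first comparison asked which ABC genes differ between PGCC and parental cells. The largest rises in PGCC were those of ABCC9 (7.60-fold) and ABCA13 (6.99-fold), followed by ABCA4, ABCB11, ABCA5, ABCA8 and ABCC2. The members that fell were the exporters ABCC3 and ABCC1, the lipid transporter ABCA3 and the translation proteins ABCE1, ABCF2 and ABCF3. Of 43 members, 28 had counts high enough to test, and 16 of these differed by the quasi-likelihood test of edgeR, with p adjusted over all genes tested (Benjamini-Hochberg). That is 57.1%, where 47.4% of the 13812 genes tested passed. In all, 10 members rose (background 23.1%) and 6 fell (background 24.3%), and the median absolute log2 fold change was 0.37 both for the members and for all genes, so the members' share lay near the background. The median signed log2 fold change was 0.09 for the 28 members and -0.03 for all genes.

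By subfamily, 5 of 8 tested ABCA genes rose and 1 fell, 2 of 6 ABCB genes rose, and 2 of 7 ABCC genes rose and 2 fell. In the ABCD group 1 of 3 rose, the single ABCE gene fell, and 2 of 3 ABCF genes fell. None of the 4 ABCG genes passed the filter on low counts. With the replicate block, ABCF1 also passed, at an adjusted p of 0.015, so that all 3 ABCF genes were lower, and 56.2% of all genes passed.

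**Figure D2:**
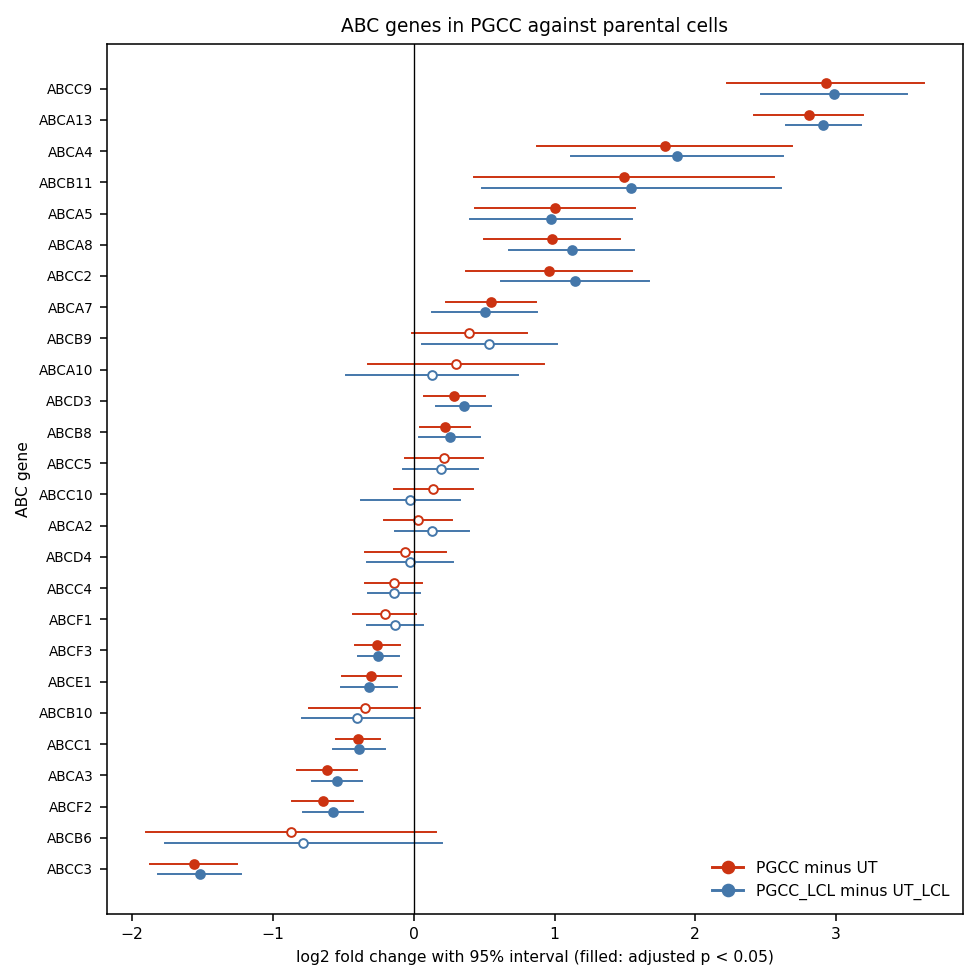
Log2 fold change with its 95% interval (horizontal axis) for tested ABC genes (vertical axis), for PGCC minus UT in red and PGCC_LCL minus UT_LCL in blue, with filled points at an adjusted p under 0.05. ABCC9 and ABCA13 stand near 3 and ABCC3 near -1.5 in both comparisons, and most other members lie within 1 of zero.

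Translation-related members were considered first. ABCE1 splits ribosomes after termination so that they can be used again. Its level was 182, 211 and 255 CPM (lowest, median and highest) in UT and 151, 171 and 191 CPM in PGCC, with a log2 fold change of -0.30 ± 0.10 (SE, adjusted p = 0.021 by edgeR). The 2 ranges overlapped slightly, although PGCC was lower in 6 of 6 same-numbered pairs. ABCF2, a soluble relative of translation factors, was at 180, 218 and 278 CPM in UT and at 126, 138 and 157 CPM in PGCC. Its log2 fold change was -0.65 ± 0.10 (adjusted p = 0.00015 by edgeR), and every PGCC library lay under every UT library. ABCF3 went from 94.6, 101 and 118 CPM to 79.7, 86.6 and 94.0 CPM, a log2 fold change of -0.26 ± 0.08 (adjusted p = 0.012), again without overlap. ABCF3 overlaps EIF2B5 on the same strand and ABCE1 overlaps OTUD4 on the other, so their counts are uncertain to that extent. With library totals in place of TMM scaling, ABCE1 and ABCF3 no longer passed (adjusted p = 0.087 and 0.086). ABCE1 also failed without replicate 2 or 3 (adjusted p = 0.057 and 0.068) and ABCF3 without replicate 6 (adjusted p = 0.050). In all 4 conditions ABCE1, ABCF1 and ABCF2 were lower in replicates 4 and 5 than in the other 4 libraries. Among 10 tested partners in ribosome recycling and termination, 0 rose and 4 fell in PGCC, beside 23.1% higher and 24.3% lower over all genes tested, which is the background for each partner list given for this comparison. The ribosome quality control factor NEMF fell by 0.35 and the recycling factor MCTS1 by 0.30 on the log2 scale.

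Exporters of drugs and conjugates moved in both directions. ABCC3 (MRP3), which sends glucuronides and bile salts out across the basolateral membrane, had the largest fall of any member. It lies at chr17:48712138-48769613 on the plus strand (hg19, as for all gene positions here). ABCC3 ranged over 230, 267 and 378 CPM in UT and 82.9, 100 and 110 CPM in PGCC. All 6 UT libraries lay far above the highest PGCC library. Its log2 fold change was -1.56 ± 0.14 (adjusted p = 1.3e-06 by edgeR), that is 0.338 of the UT level. ABCC1 (MRP1), a glutathione conjugate and drug exporter of broad range, was at 128, 143 and 171 CPM in UT and at 103, 110 and 119 CPM in PGCC. This gave -0.40 ± 0.07 on the log2 scale (adjusted p = 0.00054) with no overlap. Per length, ABCC3 and ABCC1 had median levels of 46.6 and 21.7 RPKM in UT, whereas ABCC2 (MRP2), the apical conjugate exporter, rose from 0.226 RPKM. ABCC2 had 0.641, 1.2 and 1.68 CPM in UT and 1.63, 2.08 and 3.45 CPM in PGCC, a log2 fold change of 0.96 ± 0.28 (adjusted p = 0.011). ABCC4 and ABCC5, exporters of nucleotides and nucleotide analogs, did not pass, with log2 fold changes of -0.14 (95% interval -0.34 to 0.06) and 0.21 (-0.06 to 0.49).

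ABCB11, the bile salt export pump of hepatocytes, also rose, but its call depended on a few libraries. UT libraries had 18, 29, 15, 68, 170 and 21 counts in replicates 1 to 6, with a lowest, median and highest level of 0.902, 1.57 and 9.90 CPM. In PGCC the levels were 5.85, 9.14 and 10.9 CPM. The log2 fold change was 1.5 ± 0.50 (adjusted p = 0.023 by edgeR), and UT replicate 5 reached into the PGCC range. Without replicate 1, 2 or 6 the adjusted p was 0.071, 0.072 and 0.068. Without replicates 4 and 5 the log2 fold change was 2.71 ± 0.24 (adjusted p = 1.1e-06). These replicates had more ABCB11 than the other 4 libraries in all 4 conditions.

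ABCB1 (P-glycoprotein) and ABCG2 (BCRP), the classical multidrug efflux pumps, were too low in parental cells to pass the filter, so they are described by counts. ABCB1 (chr7:87133175-87342611, minus strand) had 0, 5, 0, 2, 2 and 0 counts in the 6 UT libraries and 22, 40, 29, 11, 10 and 29 counts in the PGCC libraries. Every PGCC library was above every UT library, although the PGCC level of 0.504, 1.44 and 2.42 CPM remained low. Pooled over libraries this was 141 against 9 counts, a ratio of CPM of 14.7 with a counting interval of 7.52 to 32.8. In PGCC, replicates 4 and 5 had the 2 lowest ABCB1 levels, and without these replicates the ratio was 23.6 (9.82 to 73.9) from 120 against 5 counts. ABCG2 (chr4:89011416-89152474, minus strand) had 1, 0, 0, 1, 0 and 0 counts in UT and 7, 11, 10, 10, 8 and 11 counts in PGCC. The pooled 57 against 2 counts gave a ratio of 26.7 with an interval of 7.07 to 226, and PGCC levels ran from 0.402 to 0.666 CPM. These intervals cover counting error only. For both pumps the two-sided exact permutation test of 6 against 6 libraries gave an unadjusted p = 0.00216. That is the smallest its 924 divisions allow, and it follows from the lack of overlap. With no filter on low counts, edgeR's adjusted p was 5.4e-05 for ABCB1 and 2.0e-05 for ABCG2. ABCB1 overlaps RUNDC3B on the other strand, and whether the counting used strand is not stated. Per length, the median level in PGCC was 0.310 RPKM for ABCB1 and 0.124 RPKM for ABCG2, beside 16.6 RPKM for ABCC1 and 17.6 RPKM for ABCC3 in the same cells.

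**Figure D3:**
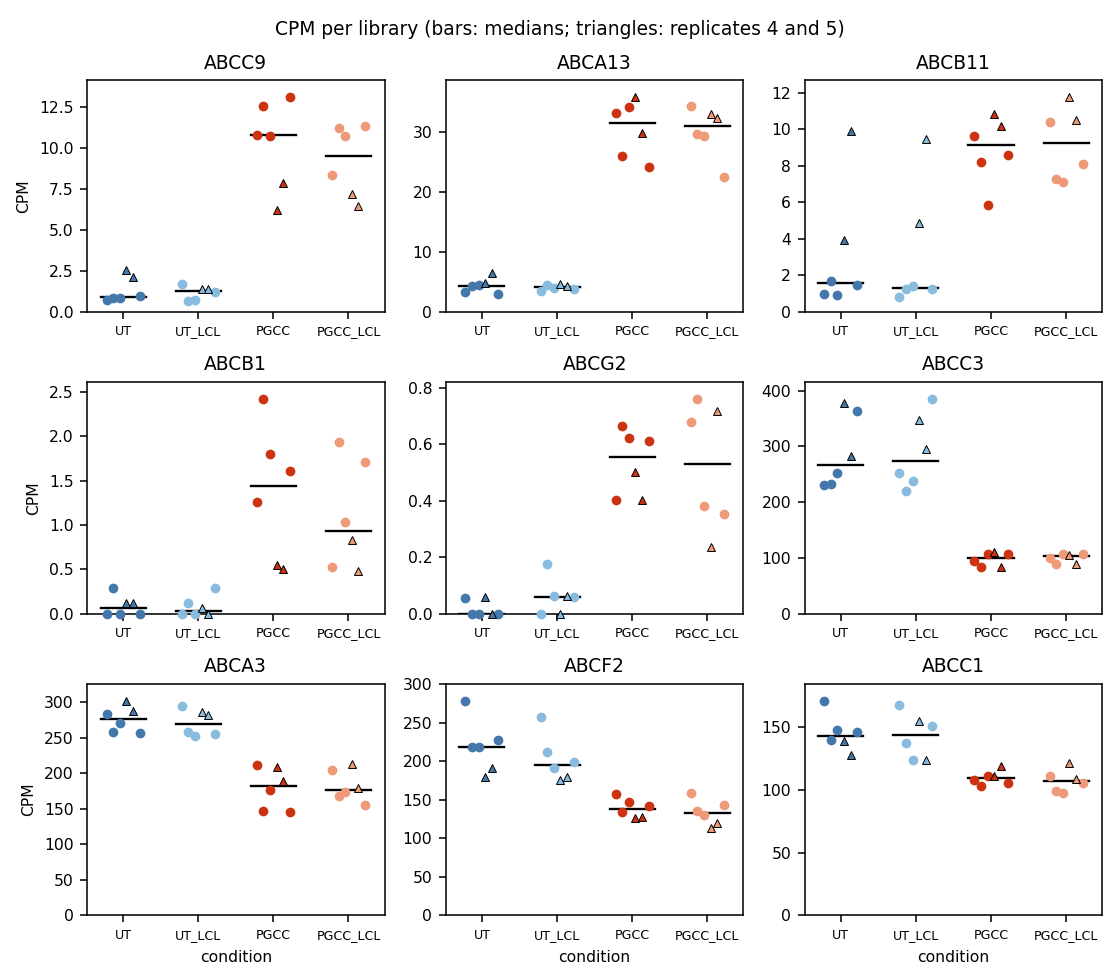
CPM in each library (vertical axes, each from 0) of 9 ABC genes in the 4 conditions (horizontal axes), with bars at the medians and triangles for replicates 4 and 5. ABCC9, ABCA13, ABCB1 and ABCG2 are higher and ABCC3, ABCA3, ABCF2 and ABCC1 lower in every PGCC library than in every UT library, while ABCB11 overlaps through UT replicate 5 at 9.90 CPM.

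Around the exporters, 9 drug and metabolite uptake carriers were tested, of which 3 rose and 2 fell. SLCO1B3, an organic anion carrier, rose by 3.30 on the log2 scale, from a mean level of 0.145 CPM in UT. That is under the floor of 3 counts, so SLCO1B3 reached the count filter through its PGCC libraries. Its place among the 9 tested and 3 risen carriers rests on that. The reduced folate carrier SLC19A1 fell by 0.48 and the carnitine carrier SLC22A5 by 0.45. Of 9 glutathione genes, 1 rose (GSTA4, 0.37) and 1 fell (GCLC, -0.39). Among 13 tested regulators of ABC genes, 2 rose and 3 fell, with the sterol receptor NR1H3 at 1.06, the xenobiotic receptor AHR at 0.45, RXRA at -0.88 and NR1H2 at -0.64.

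The sulfonylurea receptor genes serve a channel rather than a transport cycle. ABCC9 (SUR2), the regulatory subunit of ATP-sensitive potassium channels in muscle and vessels, had the largest rise of all tested members. It lies at chr12:21950335-22094336 on the minus strand. UT levels were 0.708, 0.919 and 2.55 CPM and PGCC levels 6.21, 10.8 and 13.1 CPM, so the conditions were well apart. The log2 fold change was 2.93 ± 0.33 (adjusted p = 7.3e-06 by edgeR), a 7.60-fold difference. UT replicates 4 and 5 were the highest of their condition, at 2.55 and 2.10 CPM, and PGCC replicates 4 and 5 the lowest of theirs, at 6.21 and 7.86 CPM. Without these replicates the difference was 14.1-fold (log2 fold change 3.82 ± 0.18). ABCC8 (SUR1) had 28 counts in PGCC against 5 in UT, a ratio of 5.25 with a counting interval of 2.00 to 17.4. Without replicates 4 and 5 the ABCC8 ratio was 3.93 (1.06 to 21.7), from 12 against 3 counts. The channel pore genes KCNJ8 and KCNJ11 had counts too low to test in this comparison.

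Among lipid transporters, ABCA13, the largest ABC protein, whose cargo is little known, had the smallest adjusted p of any member. It lies at chr7:48211055-48687092 on the plus strand. Its levels were 2.97, 4.37 and 6.46 CPM in UT and 24.2, 31.6 and 35.8 CPM in PGCC, so the lowest PGCC library was far above the highest UT library. The log2 fold change was 2.81 ± 0.18 (adjusted p = 7.8e-08 by edgeR). ABCA4, the retinoid flippase of photoreceptors, rose from 0.116, 0.703 and 1.33 CPM to 1.87, 2.47 and 3.11 CPM. This was a log2 fold change of 1.78 ± 0.42 (adjusted p = 0.0033), and 2.41 ± 0.48 without replicates 4 and 5. ABCA4 reached the count filter through its PGCC libraries, since UT libraries held 21, 2, 3, 23, 17 and 6 counts and it was not tested in UT_LCL against UT, so its p and its place among the 28 tested and 16 called members rest on that. ABCA7, a phospholipid transporter, rose less, by 0.55 ± 0.15 (adjusted p = 0.0075), and without replicates 4 and 5 it did not pass unless the replicate block was used (adjusted p = 0.061 without and 0.012 with the block).

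ABCA3, which loads surfactant lipids into lamellar bodies, was the abundant member of its subfamily and fell. UT libraries were at 257, 277 and 302 CPM and PGCC libraries at 145, 183 and 212 CPM, with no overlap. The log2 fold change was -0.62 ± 0.10 (adjusted p = 0.00017 by edgeR). ABCA2, a lipid transporter known from myelin-forming cells, showed no such difference, at 0.03 with a 95% interval of -0.21 to 0.27.

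ABCA5 and ABCA8 are the outer genes of a run of 5 ABCA genes on chromosome 17, in the order ABCA8, ABCA9, ABCA6, ABCA10 and ABCA5, all on the minus strand within chr17:66863433-67323385. ABCA5, a lysosomal and endosomal lipid transporter, had 2.78, 4.64 and 6.68 CPM in UT and 5.81, 8.93 and 13.3 CPM in PGCC. Its log2 fold change was 1.00 ± 0.27 (adjusted p = 0.0066 by edgeR), with some overlap between the conditions. ABCA8, linked to cellular lipid export, went from 3.30, 4.10 and 7.51 CPM to 8.05, 9.82 and 11.6 CPM without overlap, a log2 fold change of 0.98 ± 0.23 (adjusted p = 0.0027). ABCA9 was detected in all PGCC libraries and in no UT library, with 115 against 4 pooled counts, a ratio of 27.0 and a counting interval of 10.3 to 101. PGCC replicates 4 and 5 held 3 and 4 of these counts, and without both replicates 108 against 1 counts gave a ratio of 106 with an interval of 18.6 to 4224. ABCA6 had 40 against 8 counts, a ratio of 4.69 (2.17 to 11.6). Its direction was not shared by all replicates, since PGCC had 8, 6, 13, 0, 1 and 12 counts and UT 0, 1, 3, 2, 1 and 1. Replicates 4 and 5 thus did not show more ABCA6 in PGCC, and without them the ratio was 7.65 (3.01 to 24.9). The exact permutation test gave an unadjusted p = 0.113 for ABCA6. For ABCA9 it gave 0.00216, the smallest possible, which follows from the lack of overlap and adds nothing to it. ABCA10 lies between higher neighbours and did not pass, at 0.30 (95% interval -0.32 to 0.93, adjusted p = 0.41). It did pass without replicates 4 and 5, at 0.81 ± 0.27 (adjusted p = 0.023). ABCA5 and ABCA10 overlap on the same strand, so their reads are not fully separable at the shared end.

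**Figure D4:**
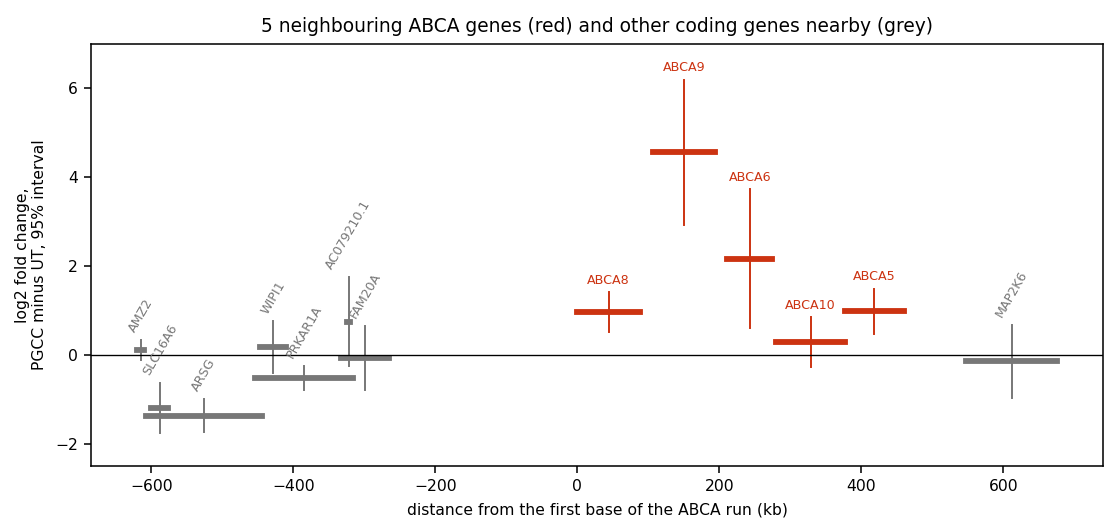
Log2 fold change of PGCC minus UT with 95% interval (vertical axis, fit with no filter on low counts) along the ABCA run on chromosome 17 (horizontal axis, kb from its first base), with the 5 ABCA genes in red and other protein-coding genes nearby in grey. ABCA8, ABCA9, ABCA6 and ABCA5 lie above zero with their intervals, ABCA10 spans zero, and ARSG, SLC16A6 and PRKAR1A lie under it.

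The run and its surroundings were chosen after the values were seen and carry no test of their own. In the fit with no filter, the adjusted p was 0.00013 for ABCA9 and 0.038 for ABCA6, and in PGCC_LCL against UT_LCL the ABCA6 value was 0.061. Of the 8 other protein-coding genes within 700 kb, 3 were lower in PGCC (ARSG at -1.35, SLC16A6 at -1.18 and PRKAR1A at -0.50), 4 were tested without passing (AMZ2, WIPI1, FAM20A and MAP2K6), and AC079210.1 was not tested. None of the 8 was called higher.

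Members of peroxisomes, mitochondria and lysosomes other than ABCA5 were considered next. ABCD3, which imports fatty acids into peroxisomes, rose by 0.29 ± 0.10 (adjusted p = 0.030 by edgeR), from 45.9, 60.4 and 70.2 CPM to 63.9, 71.8 and 81.1 CPM, and lost its call without replicate 1, 3 or 6. ABCB8, in the inner mitochondrial membrane, rose by 0.22 ± 0.08 (adjusted p = 0.041), a call that was lost when any single replicate other than 6, or replicates 4 and 5 together, were left out. ABCB10, another inner membrane protein of mitochondria, was at -0.35 (-0.75 to 0.05) over all replicates and at -0.54 ± 0.08 (adjusted p = 9.8e-05) without replicates 4 and 5. ABCD4, which passes cobalamin out of lysosomes, was at -0.06 (-0.35 to 0.23).

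The partners of these organelle members were examined by lists chosen by role. Of 12 peroxisomal genes, 1 rose and 5 fell, among them the import receptor PEX5 at -0.36. Of 11 genes for mitochondrial iron-sulfur clusters and heme, 2 rose (NFS1 at 0.49, FDXR at 0.36) and 6 fell, among them the chaperone HSPA9 at -0.81. Of 6 cobalamin genes, 0 rose and 3 fell, with MMACHC at -0.65 and LMBRD1, the lysosomal partner of ABCD4, at -0.50. In antigen peptide loading 2 of 4 tested genes rose, B2M at 0.89 and TAPBP at 0.75, while the peptide transporter subunit TAP2, an ABC protein outside the name rule, was at 0.12 (adjusted p = 0.52).

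For the 12 tested members that did not pass, log2 fold changes ran from -0.87 (ABCB6, 95% interval -1.90 to 0.16) to 0.40 (ABCB9). In 11 of the 12 the interval stayed within a 2-fold change either way, and in 8 within 1.5-fold. A 2-fold difference was therefore compatible only with the ABCB6 interval, whose UT libraries had 0.349 to 2.28 CPM. Without replicates 4 and 5, ABCB6, a porphyrin transporter, passed as lower at -1.36 ± 0.52 (adjusted p = 0.040), and with the replicate block as well at -1.36 ± 0.36 (adjusted p = 0.0037). ABCB6 lay near the count filter, with 6 to 33 counts in UT and 3 to 18 in PGCC. It was not tested in PGCC_LCL against PGCC. ABCB6 also overlaps ATG9A on the same strand over 9219 bases, so its counts are uncertain to that extent. For ABCB9 the ratio of pooled CPM was 1.32, and without replicates 4 and 5 it was 1.02 (counting interval 0.888 to 1.16). Of the tested members, 4 were higher without overlap between the conditions (ABCA4, ABCA8, ABCA13 and ABCC9, background 13.9%) and 5 lower without overlap (ABCA3, ABCC1, ABCC3, ABCF2 and ABCF3, background 12.9%). Among the 15 members not tested, ABCA9, ABCB1, ABCC12 and ABCG2 were higher without overlap. The backgrounds above cover tested genes only, and no such share was taken over the genes not tested. ABCC12 had 23 counts in PGCC and 0 in UT, at least 7.19-fold higher against a floor of 3 counts over the condition. ABCC6 and ABCC11 had pooled ratios of 1.75 each, with counting intervals of 1.17 to 2.67 and 1.09 to 2.84, but without replicates 4 and 5 both intervals included 1 (0.729 to 2.00 and 0.657 to 2.27). For ABCA12, ABCB4, ABCB5, ABCG4, ABCG5 and ABCG8 the interval included 1, and ABCD2 had 3 counts in PGCC and 0 in UT. Without replicates 4 and 5 the ABCA12 interval lay above 1, at 2.59 (1.37 to 5.19) from 37 against 14 counts. In PGCC_LCL against UT_LCL without these replicates the ABCA12 ratio was 1.14 (0.631 to 2.07).

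The same question was asked of PGCC_LCL and UT_LCL, which share no library with PGCC and UT. Again 28 members were tested and 16 passed, where 48.9% of the 13818 genes tested did (25% higher and 23.9% lower). They were the same 16 genes, each in the same direction. The log2 fold changes were 2.98 for ABCC9, 2.91 for ABCA13, 1.87 for ABCA4 and 1.55 for ABCB11, and -1.52 for ABCC3, -0.57 for ABCF2, -0.55 for ABCA3 and -0.39 for ABCC1. With the replicate block ABCB10 passed as well (adjusted p = 0.035), where 56.3% of all genes did. Members higher without overlap were ABCA4, ABCA8, ABCA13, ABCC2 and ABCC9 (background 14.4%), and the 5 lower without overlap were those of the first comparison (background 13.7%). ABCB1 had 113 against 8 counts, a ratio of 13.5 (6.61 to 32.0), and ABCG2 had 55 against 6 counts, a ratio of 8.75 (3.77 to 24.9). For both pumps PGCC_LCL libraries were all above the UT_LCL libraries. ABCC6 had 56 against 58 counts here, a ratio of 0.921 (0.627 to 1.35), whose interval includes 1, and ABCC11 had 54 against 24, a ratio of 2.15 (1.30 to 3.63). The conditions come from the same 6 runs of the experiment, so the comparisons are separate libraries and not separate experiments.

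The second question was whether LCL-521 changed ABC genes. In parental cells 27 members were tested and 0 passed, with 0 at an unadjusted p under 0.05 and 0 by DESeq2, where 0% of 13277 genes passed and 71 had an unadjusted p under 0.05. Log2 fold changes of the members lay between -0.18 (ABCC9) and 0.16 (ABCC5). In 25 of 27 the 95% interval stayed within a 2-fold change and in 18 within 1.5-fold. In PGCC 32 members were tested and 0 passed, with 0 at an unadjusted p under 0.05 and 0 by DESeq2, where 0.00707% of genes passed, which is 1 of 14151, and 218 had an unadjusted p under 0.05. Log2 fold changes lay between -0.33 (ABCA4) and 0.13 (ABCA2), with 30 of 32 intervals within 2-fold and 24 within 1.5-fold. For most members a 2-fold change therefore lay outside the interval, while for 2 members in each population it did not. These fits leave the pairing of libraries out. With the replicate block 0 members passed in either population. In parental cells 3 members then had an unadjusted p under 0.05 by edgeR, where 1648 of 13277 genes did. In PGCC 5 members did, where 2030 of 14151 genes did. With the block, all 27 and all 32 intervals stayed within 2-fold.

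**Figure D5:**
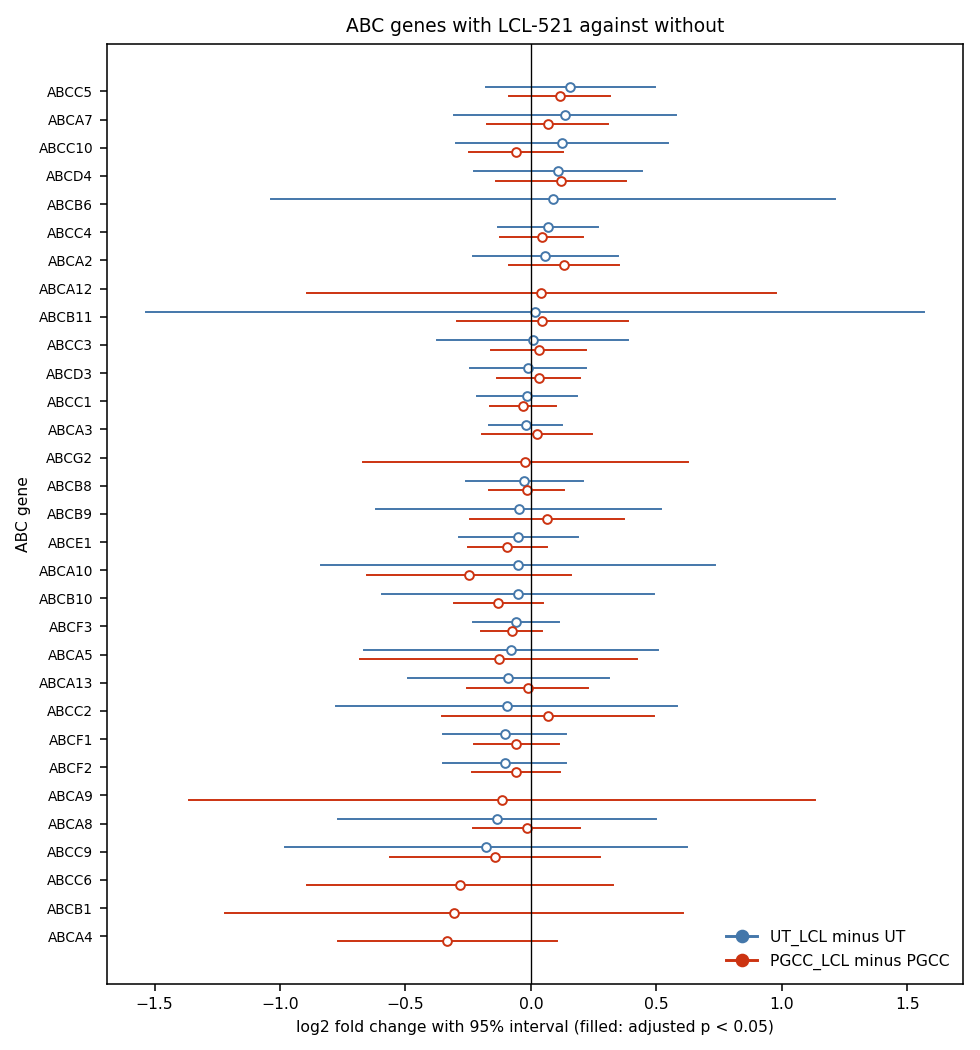
Log2 fold change with its 95% interval (horizontal axis) for tested ABC genes (vertical axis), for UT_LCL minus UT in blue and PGCC_LCL minus PGCC in red. No point is filled, so no member had an adjusted p under 0.05, and the points lie between -0.33 and 0.16.

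Members whose difference had the same sign in all 6 pairs were counted next. In parental cells these were 4 of 27, with ABCA7 and ABCC5 higher and ABCF1 and ABCF2 lower with the drug, where 8.16% of all genes tested had one sign in 6 pairs. In PGCC they were 6 of 32, with ABCA2 and ABCA7 higher and ABCB10, ABCC10, ABCE1 and ABCF1 lower, where 7.93% of all genes did. For members picked in this way the exact test over all 64 sign changes can only give p = 0.0313, the smallest it allows, unadjusted. That p therefore adds nothing to the counts above. ABCF1, a translation initiation protein, was in both lists as lower, at -0.10 (95% interval -0.35 to 0.14) in parental cells and -0.06 (-0.23 to 0.11) in PGCC. Values are given in full for ABCC5, ABCA4 and ABCB10. In parental cells ABCC5 was at 45.4, 66.5 and 85.0 CPM in UT and 57.8, 69.6 and 97.0 CPM in UT_LCL, a log2 fold change of 0.16 (95% interval -0.18 to 0.49). With the replicate block, its adjusted p by edgeR was 0.14, the smallest among the members, where 0.866% of all genes passed. In PGCC, ABCA4 was at 1.87, 2.47 and 3.11 CPM without and 1.36, 1.84 and 2.71 CPM with the drug, at -0.33 (-0.77 to 0.10). ABCB10 was at 31.7, 37.6 and 40.8 CPM without and 29.3, 35.3 and 37.0 CPM with it, at -0.13 (-0.31 to 0.05), lower in 6 of 6 pairs. With the block, the smallest adjusted p in PGCC was 0.061 for ABCA2, where 1.65% of genes passed. No tested member was higher or lower with the drug without overlap, where among all genes 0.0226% were higher and 0.00753% lower in parental cells, and 0.0707% and 0.0141% in PGCC.

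The drug pumps ABCB1 and ABCG2 stayed near the floor in parental cells with and without LCL-521. ABCB1 had 9 counts in UT and 8 in UT_LCL, and ABCG2 had 2 and 6. In PGCC the log2 fold change with the drug was -0.31 (95% interval -1.22 to 0.61) for ABCB1, -0.02 (-0.67 to 0.63) for ABCG2 and -0.03 (-0.16 to 0.10) for ABCC1. The ABCB1 interval is wide, and it does not show that the conditions were alike. Across the partner lists 0 genes passed in either LCL-521 comparison, and with the replicate block 1 regulator was lower in PGCC_LCL than in PGCC.

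Whether the response to LCL-521 differed between PGCC and parental cells was tested by the interaction over all 24 libraries. Of 34 members tested 0 passed, with 0 at an unadjusted p under 0.05 and 0 by DESeq2, where 0% of 14555 genes passed and 60 had an unadjusted p under 0.05. The difference of log2 fold changes ran from -1.34 ± 0.89 (ABCG2, 95% interval -3.18 to 0.51) to 0.33 (ABCC11), and 24 of 34 intervals stayed within 2-fold. The ABCG2 value rests on 2 and 6 counts in parental cells.

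By likeness of pattern, measured as Pearson's r of log2 CPM over 24 libraries against 14554 other genes, the genes closest to ABCC9 were HIST1H2BG (0.979), IL1B (0.974), KIF23 (0.973), ZSWIM6 (0.973) and CPEB4 (0.971). Those closest to ABCC3 were AIFM2 (0.972), VPS28 (0.964), MAN2A2 (0.963), SSTR5-AS1 (0.963) and CELSR2 (0.962). These values are descriptions, because the libraries fall into PGCC and parental cells and the genes share libraries and depth.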

How the data were processed

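RNA from PPC1 cells was measured in 24 libraries. Per the labels and the submitters' processing notes, reads were aligned to hg19 with STAR and counted per gene with HTSeq after base calling with CASAVA, and DESeq2 was used for the study's comparisons. The authors deposited raw counts per gene, with gene length and position, and no per-sample column was left out. Versions of these tools stand in the study's supplementary methods and are not printed here. The use of strand in counting is not given in the sources used here, so counts of overlapping genes and of near-identical copies are uncertain. Total counts and the count floor are given with the results, and intervals on ratios of pooled counts cover counting error only.

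Groups were taken from the sample labels. Each comparison used its 12 libraries in edgeR 4.0.16 (R 4.3.3, limma 3.58.1): filterByExpr (minimum count 10, minimum total 15), TMM scaling and the quasi-likelihood test, with Benjamini-Hochberg adjustment over all genes tested, a threshold of 0.05 and no replicate block. SE is the absolute log2 fold change over the root of F. CPM are TMM-scaled, and log2 CPM has a prior of 2 counts. Single members were also compared by two-sided exact permutation of mean log2 CPM, and same-numbered pairs by all sign changes. The permutation test had been planned with adjustment over the members, which was not used. Its p was adjusted over all genes tested only for members that passed the count filter. The permutation and sign-change p values printed here are unadjusted. DESeq2 1.42.0 and the other alternatives are covered under how the results depend on the processing. The test across genes was tested on simulated data.

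The labels give a replicate number within each condition, and same-numbered libraries were taken to come from the same of the 6 runs. In each of the 4 comparisons, all 6 same-numbered pairs had correlated deviations over 0.1 (median r from 0.272 to 0.656), so the numbers pair the libraries. Each run is a separate culture of 1 cell line. Replicates were checked for duplicated libraries, and all 60 pairs within a condition differed by more than sampling noise.

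Values are given for the up to 6 largest rises and 6 largest falls past the threshold in PGCC against UT, for members with the smallest p where no member passed an LCL-521 comparison, and for ABCB1, ABCC1 and ABCG2. Others are named for their role or because their call changed, after their values were seen. Values of some members and partner genes that these rules name are not reported here, and 2 members are left out of the plots. The members, gene lists and tests were chosen with earlier results of these data known. Positions of genes are hg19 as in the count table, and upstream sequences are RefSeq GRCh38.p14. The 2 builds were not mixed.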

Additional observations from a re-analysis of the deposited data

Results flagged for a closer look

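Over 14 named genes, the highest or lowest of 6 libraries stood apart from the others in 2 of 56 conditions examined, and chance alone marks about 1 in 20. ABCB11 in UT replicate 5 was at 9.9 CPM, with the next library, replicate 4, at 3.94 CPM. ABCG2 in UT_LCL replicate 2 was at 0.177 CPM, which is 3 counts, with the next library at 0.0613 CPM.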

How the results depend on the processing

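The PGCC against UT count of 16 members was 16 with RLE size factors and with DESeq2, 14 with library totals, 20 with no filter on low counts, 19 with all 24 libraries in one fit, 17 with the replicate block, 23 with no filter and the block, and 19 and 22 without replicates 4 and 5, without and with the block. For PGCC_LCL against UT_LCL the counts in the same order were 15, 17, 16, 21, 21, 17, 22, 17 and 18. Members tested were 28 at the usual filter, 43 with no filter, 34 in one fit and 30 without replicates 4 and 5. The background moved as well. Over all genes in PGCC against UT it was 7675 of 29759 with no filter, 8630 with the block too, and 7287 of 14555 in one fit. Without replicates 4 and 5 it was 7543 and 8881 of 13809. In the LCL-521 pair these were 8035 and 8776 of 29659, 7351 of 14555, and 7290 and 7991 of 13891. With RLE, DESeq2 and library totals, 6519, 6883 and 6341 of 13812 genes passed in PGCC against UT. In the LCL-521 pair 6799, 7143 and 6644 of 13818 did. Leaving out each replicate gave 13 to 15 and 12 to 18 members, where 5529 to 6333 and 5734 to 6339 of all genes passed. It gave 0 members for each LCL-521 comparison and the interaction. Calls held in all 6 of these fits for 11 of 16 and 12 of 16 members. ABCB8 was lost in 5 fits of each comparison, ABCB11 in 3 of each, and ABCA7 in 4 of the LCL-521 pair. At the usual filter with all replicates, the block changed the calls of ABCF1 and ABCB10 and of no other member. Without replicates 4 and 5 it changed those of ABCA7, ABCC4 and ABCF1 in PGCC against UT and of ABCB6 in the LCL-521 pair (adjusted p = 0.058 without and 0.011 with the block). In the LCL-521 comparisons the 1 member called was ABCA2 in PGCC_LCL against PGCC (0.14, adjusted p = 0.046), with no filter and the block, a setting chosen after seeing the data. With library totals the split over all genes in PGCC against UT went from 3186 higher and 3355 lower to 3820 and 2521, and over members from 10 and 6 to 10 and 4. No direction reversed for the members whose values are given by rule. ABCA2 is outside that rule. Its pooled ratio of PGCC to UT was 1.04 over all replicates and 0.967 (0.939 to 0.996) without replicates 4 and 5. Members that did not pass the count filter are described by counts. Ratios of pooled counts without replicates 4 and 5 were added after seeing the data.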
